A study of Homo sapiens with 21 samples.

Results

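The 10 genes described here encode adenosine receptors and the proteins that make, clear and carry adenosine: ADORA2B, ADORA2A, ADORA1, NT5E, AHCY, ADK, ADA, PNP, SLC29A1 and SLC29A2. They were taken by symbol, matched to Ensembl gene identifiers, and all 10 were found among the 37637 features of the gene count table. The list was chosen with earlier results of these data known, so its p-values are not those of genes picked independently of the data. The cells were HepG2, an established line from a human liver cancer, treated for 6 h with caffeine (0, 0.01, 0.1, 1, 10, 100 or 1000 µM), and their RNA was selected with poly(dT) beads before sequencing. Each dose had 3 libraries, 21 in all. Every group, the 0 µM group included, was moved from serum-containing DMEM, washed and kept in fresh DMEM without serum. The series text names coumarin for the control, whereas each control sample is labelled as untreated, at 0 µM of caffeine; the labels of the samples were used. The series text calls the libraries of a dose biological replicates without saying whether they came from separate cultures. The p-values therefore set differences between doses against the spread between these libraries, and not against a known spread between cultures.

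Adenosine is a purine nucleoside that signals outside cells through 4 G protein-coupled receptors, and caffeine is a methylxanthine that blocks them. The A1 and A3 receptors couple to inhibitory G proteins, while the A2a and A2b receptors couple to stimulatory G proteins that raise cyclic AMP, the A2b receptor with the lowest affinity for adenosine. Outside the cell adenosine is made from AMP by CD73, inside the cell it is also released from S-adenosylhomocysteine, it crosses the membrane through equilibrative transporters, and it is removed by phosphorylation to AMP or deamination to inosine.

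Total counts per library ran from 28043623 to 40827833, with a median of 32497612, and 3 counts, the limit that a count of 0 allows, corresponded to 0.0735 to 0.107 CPM (counting error only). CPM values are the counts of a gene scaled by the size of its library with the TMM correction for composition. The hepatic identity of the cells was checked with 10 markers, all of which were measured, and their summed level was 27190 to 29630 CPM in the controls and 26000 to 28040 CPM in the 1000 µM libraries. Within that sum APOB was higher at 1000 µM (5187 ± 88.8 against 7645 ± 818 CPM, adjusted p = 0.0163, edgeR), while APOA1 (1739 ± 325 against 847 ± 189 CPM, adjusted p = 0.000768), AFP (3495 ± 248 against 2162 ± 184 CPM, adjusted p = 4.48e-05) and FGB (56.8 ± 5.12 against 45.2 ± 2.73 CPM, adjusted p = 0.00362) were lower, and the other 6 did not pass. Of 10 markers of leukocytes, endothelium and fibroblasts, 9 were in the table and their sum was 1209 to 1426 CPM in the controls and 925 to 1278 CPM in the 1000 µM libraries. PTPRC, CD3E, COL3A1 and DCN had at most 1 count in any library, whereas LYZ had 27878 to 49382 counts and CD68 had 1954 to 3659. PDGFRB, a marker of mural cells and fibroblasts, was higher at 1000 µM (4.45 ± 0.308 against 8.58 ± 0.271 CPM, adjusted p = 7.64e-07), and neither LYZ (adjusted p = 0.0581) nor CD68 (0.17) passed. The part of these markers in the results below was not tested. The share of counts from mitochondrial genes varied from 4.95% to 14.2% over the libraries, with 6.94% to 7.86% in the controls, 6.47% to 11.3% in the 10 µM group and 6.94% to 10.3% in the 1000 µM group.

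Per kilobase of exon, the scale on which genes can be set against each other, the 10 genes spanned a wide range. Averaged over the 21 libraries, AHCY stood at 199.8 CPM per kb, SLC29A1 at 31.4, ADK at 24.9, NT5E at 16.8 and PNP at 13.8. ADORA2B followed at 9.05 CPM per kb, ADA at 3.22, ADORA2A at 0.752, SLC29A2 at 0.422 and ADORA1 at 0.0420. By the reads given to each gene, ADORA2B was therefore the adenosine receptor with the highest measured level. Reads given to SPECC1L-ADORA2A, a readthrough gene that shares 2380 of the 4193 exonic bases of ADORA2A, are not in this order. At 10 µM ADORA2A and SPECC1L-ADORA2A together held 1163, 1088 and 783 counts, not scaled by length, beside 574, 552 and 728 of ADORA2B. ADORA3, the remaining receptor, had at most 2 counts in any library and 0 counts in 16 of the 21. Of the 10 genes, 9 passed the filter on low counts; ADORA1, with 2 to 13 counts per library, did not and was not tested.

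**Figure D1:**
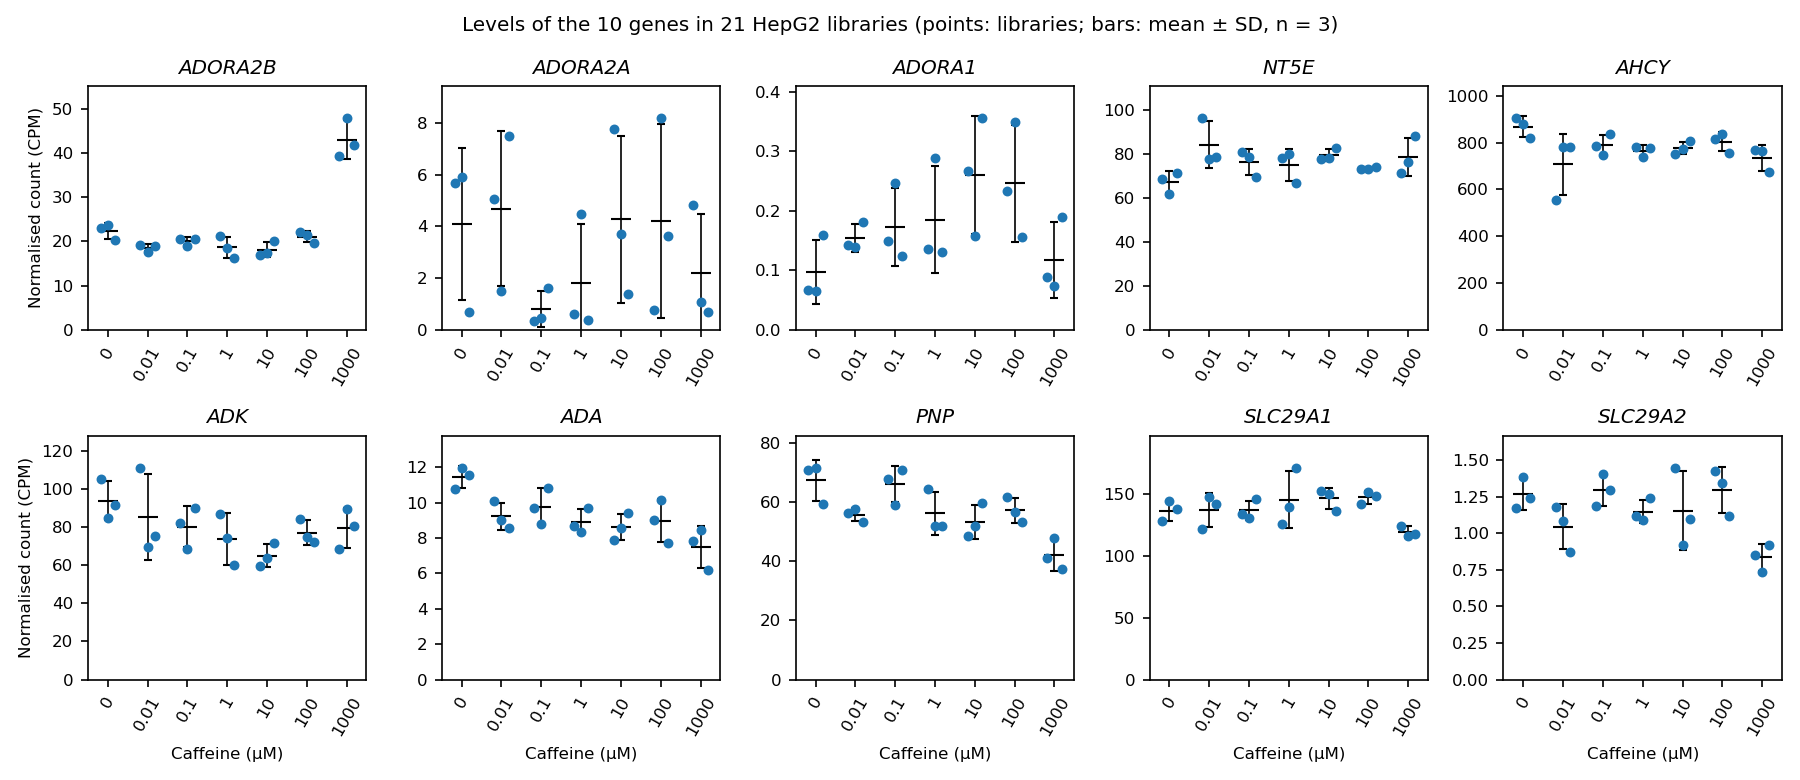
Normalised read count in CPM (vertical axes, each with its own scale from 0) against caffeine in µM for the 10 genes; points are the 3 libraries of a dose, and bars are the mean ± SD (bars that would pass below 0 stop at the axis). ADORA2B stands between 16.3 and 23.7 CPM up to 100 µM and between 39.4 and 47.9 CPM at 1000 µM, while PNP is lowest at 1000 µM.

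At 1000 µM the transcript of the A2b receptor was higher than in the untreated cells, and 3 genes of adenosine and inosine handling were lower. ADORA2B rose 1.92-fold, PNP fell to 0.625 of its level at 0 µM, ADA to 0.655 and SLC29A2 to 0.66. These were 4 of the 9 tested genes, 1 higher and 3 lower, by the quasi-likelihood test of edgeR, with p-values adjusted by Benjamini and Hochberg's method (Benjamini-Hochberg) over all 17468 genes tested. Of all genes tested, 41.2% passed in that comparison, so the share among the adenosine genes was near the background. The median log2 fold change of the 9 genes was -0.24, beside -0.030 over all genes tested.

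ADORA2B (ENSG00000170425.3, chr17:15944917-15975746 on the plus strand of GRCh38, GENCODE 29) encodes the A2b receptor. Its level at 0 µM was 23.0, 23.7 and 20.3 CPM in replicates 1, 2 and 3, and at 1000 µM it was 39.4, 47.9 and 41.7 CPM. All 3 libraries at 1000 µM were above every other library, the next highest being a control. The difference from 0 µM was 0.94 ± 0.11 on the log2 scale (SE, n = 3 per dose; 95% interval 0.72 to 1.17; adjusted p = 3.23e-06 by edgeR), and the group means were 22.4 ± 1.83 and 43.0 ± 4.42 CPM (SD).

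The intermediate doses of caffeine did not lie between those levels. ADORA2B stood at 19.1, 17.6 and 19.0 CPM at 0.01 µM, at 20.4, 18.9 and 20.6 CPM at 0.1 µM, and at 21.1, 18.5 and 16.3 CPM at 1 µM. At 10 µM it was 17.0, 17.5 and 19.96 CPM, and at 100 µM 21.99, 21.4 and 19.6 CPM. Most of these libraries were therefore below the controls: 10 of the 15 libraries at 0.01 to 100 µM were under the lowest control and none was above the highest. In order of the group means, the doses ran 10, 0.01, 1, 0.1, 100, 0 and 1000 µM, and the ranges of neighbours in that order overlapped except between 0 and 1000 µM.

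Against 0 µM the difference in ADORA2B at 10 µM was -0.30 ± 0.11 on the log2 scale (adjusted p = 0.0480), and for the mean of the 4 doses from 0.01 to 10 µM it was -0.25 ± 0.082 (adjusted p = 0.0432), both by edgeR. Both calls were lost under RLE scaling (adjusted p = 0.0563 and 0.0581) and without control replicate 1 (0.151 and 0.204) or 2 (0.159 and 0.212). The first was also lost without 10 µM replicate 1 (0.181) or 2 (0.148), and the second on leaving out any of 8 single libraries among the 12 at 0.01 to 10 µM (0.0564 to 0.0836). At 100 µM the difference was -0.09 ± 0.11 (95% interval -0.31 to 0.13; adjusted p = 0.625). The step from 100 to 1000 µM was 1.03 ± 0.11 (adjusted p = 4.15e-06), and against the mean of 0.01 to 10 µM the level at 1000 µM was 1.19 ± 0.077 higher on the log2 scale, or 2.29-fold (adjusted p = 2.56e-09). The 7 groups together differed for ADORA2B (adjusted p = 3.75e-07), and without the 1000 µM group they did not pass (adjusted p = 0.238).

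ADORA2A and ADORA1, the other receptors of the list, gave no call. ADORA1 (the A1 receptor) had 2, 2 and 5 counts at 0 µM and 3, 3 and 6 counts at 1000 µM, near the limit of what these libraries can measure. ADORA2A (the A2a receptor; ENSG00000128271.22, chr22:24417879-24442360, plus strand) had 170, 183 and 22 counts in the 3 control libraries and 164, 44 and 22 at 1000 µM. Libraries of the same dose thus differed severalfold, and the ranges of all 7 doses overlapped. The fitted difference at 1000 µM was -0.90 ± 1.00 on the log2 scale (95% interval -2.99 to 1.19; adjusted p = 0.493, edgeR), an interval too wide to show a change of either sign.

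The counts of ADORA2A share exonic sequence with another annotated gene. Of its 4193 exonic bases, 2380 also belong to SPECC1L-ADORA2A, a readthrough gene on the same strand that joins the upstream SPECC1L to ADORA2A, and how reads in shared exons were assigned is not given in the sources used here. SPECC1L-ADORA2A had 112, 84 and 254 counts at 0 µM, 901, 971 and 733 at 10 µM and 915, 817 and 1004 at 1000 µM. Every treated library except 0.01 µM replicate 1, with 57 counts, was above the highest control, and the third control library, which was lowest for ADORA2A, was the highest control for the readthrough gene. Summed over both genes the controls held 282, 267 and 276 counts and the libraries at 1000 µM held 1079, 861 and 1026, so the controls were closer to each other in the sum than in either gene.

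SPECC1L-ADORA2A was 2.43 ± 0.62 higher on the log2 scale at 1000 µM (adjusted p = 0.00476) and 2.41 higher at 10 µM (adjusted p = 0.0125) by edgeR, and its difference between 1000 and 100 µM did not pass (0.84, adjusted p = 0.358). The readthrough gene was examined because its exons overlap a listed gene, after the values had been seen. The upstream gene SPECC1L differed by 0.12 on the log2 scale at 1000 µM (adjusted p = 0.234). ADORA2A-AS1, on the opposite strand over 285 exonic bases of ADORA2A, had 2 to 13 counts.

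**Figure D2:**
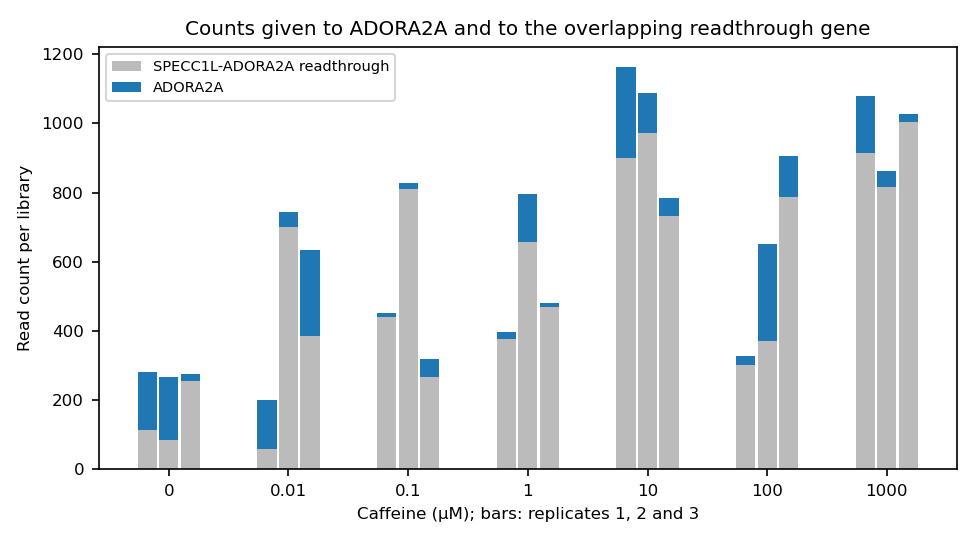
Read counts per library (vertical axis, from 0) given to ADORA2A (blue) and to the overlapping readthrough gene SPECC1L-ADORA2A (grey), stacked, for replicates 1, 2 and 3 of each caffeine dose in µM. The stacked bars of the 3 controls are of nearly equal height, 267 to 282 counts, although the share of ADORA2A in them ranges from 22 to 183 counts, and at 1000 µM they reach 861 to 1079.

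NT5E and AHCY, the genes of adenosine production, did not pass the test at 1000 µM. NT5E (chr6:85449584-85495791, plus strand) encodes CD73, the cell-surface enzyme that splits AMP into adenosine and phosphate, and stood at 68.5, 61.8 and 71.2 CPM at 0 µM and at 71.2, 76.2 and 88.1 CPM at 1000 µM. The controls were the group with the lowest mean and did not overlap the next group in order, the 100 µM libraries, and 15 of the 18 treated libraries were above every control. The difference was 0.22 ± 0.10 on the log2 scale at 1000 µM (95% interval 0.0089 to 0.44; adjusted p = 0.0883) and 0.23 ± 0.083 for the mean of 0.01 to 10 µM (adjusted p = 0.0640), by edgeR.

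These NT5E values lie close to the threshold: with DESeq2 the adjusted p was 0.0489 at 1000 µM, 0.0224 for the mean of 0.01 to 10 µM and 0.0161 at 0.01 µM, where NT5E was 96.3, 77.5 and 78.3 CPM. Without 1000 µM replicate 1 the edgeR difference at 1000 µM became 0.32 (adjusted p = 0.0327), and without 1000 µM replicate 3 it became 0.14. Over the 6 fits that left out 1 library, the adjusted p by edgeR reached up to 0.37. Between 1000 µM and the mean of 0.01 to 10 µM the difference was -0.0015 (95% interval -0.17 to 0.17). The small excess of NT5E over the controls was thus of like size at the lowest doses and at the highest, and a slope over the dose steps did not pass (0.011 per step, 95% interval -0.022 to 0.044, adjusted p = 0.639).

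AHCY (chr20:34280268-34311802, minus strand) encodes S-adenosylhomocysteine hydrolase, which releases adenosine inside the cell, and was the most abundant of the 10 genes. It stood at 906, 880 and 820 CPM at 0 µM and at 770, 765 and 672 CPM at 1000 µM, and the lowest library of all was 0.01 µM replicate 1, with 557 CPM. The treated libraries lay below every control in 16 of 18 cases and above every control in none. No comparison passed for AHCY: the difference was -0.24 ± 0.11 on the log2 scale at 1000 µM (adjusted p = 0.0757) and -0.20 ± 0.082 for the mean of 0.01 to 10 µM (adjusted p = 0.104), by edgeR.

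Of the genes that remove adenosine, ADA was lower at 1000 µM and ADK was not called there. ADA (ENSG00000196839.13, chr20:44619522-44652233, minus strand) encodes adenosine deaminase, which turns adenosine into inosine. It stood at 10.8, 11.97 and 11.6 CPM at 0 µM and at 7.83, 8.44 and 6.18 CPM at 1000 µM, so the groups did not overlap. The difference was -0.61 ± 0.13 on the log2 scale (95% interval -0.88 to -0.34; adjusted p = 0.00116, edgeR), with group means of 11.4 ± 0.614 and 7.48 ± 1.17 CPM.

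The level of ADA was below that of the controls across the dose range. At 10 µM it was 7.90, 8.54 and 9.40 CPM (difference -0.41 ± 0.13, adjusted p = 0.0310), and at 100 µM it was 8.999, 10.2 and 7.73 CPM (difference -0.35 ± 0.13, adjusted p = 0.0989). Of the 18 treated libraries 17 were below every control, the exception being 0.1 µM replicate 3 with 10.8 CPM. The mean of 0.01 to 10 µM was 0.33 ± 0.10 below 0 µM on the log2 scale (adjusted p = 0.0309), and the step from 100 to 1000 µM, -0.26 ± 0.13, did not pass (adjusted p = 0.193). The calls at 10 µM and over 0.01 to 10 µM were lost on leaving out any 1 of the 3 controls, with adjusted p of 0.0631 to 0.0974 and 0.0949 to 0.144. The first was also lost without 10 µM replicate 1 (0.134) or 2 (0.0889), and the second without 0.01 µM replicate 3 (0.0513), 0.1 µM replicate 1 (0.0542) or 2 (0.0581) or 1 µM replicate 2 (0.0586). PKIG, which overlaps ADA by 46 exonic bases on the opposite strand, was also lower at 1000 µM (57.6 ± 1.51 against 40.8 ± 4.42 CPM, log2 difference -0.50 ± 0.13, adjusted p = 0.00652), and its part in the counts of ADA was not tested.

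ADK (chr10:74151185-74709303, plus strand) encodes adenosine kinase, which returns adenosine to AMP. It stood at 104.9, 84.8 and 91.4 CPM at 0 µM, at 59.6, 63.9 and 71.6 CPM at 10 µM and at 68.5, 89.4 and 80.4 CPM at 1000 µM. The 10 µM group lay below the controls without overlap and had the lowest mean, while the 1000 µM group overlapped the controls. The difference was -0.53 ± 0.17 on the log2 scale at 10 µM (adjusted p = 0.0324) and -0.24 ± 0.17 at 1000 µM (adjusted p = 0.268), by edgeR. The call at 10 µM was lost without control replicate 1 (adjusted p = 0.142), control replicate 3 (0.0572), 10 µM replicate 1 (0.130) or 10 µM replicate 2 (0.0947), and with the mitochondrial share as a covariate (0.0598).

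PNP (ENSG00000198805.11, chr14:20468954-20477094, plus strand) encodes purine nucleoside phosphorylase, which splits inosine and guanosine into base and ribose phosphate. It stood at 71.1, 71.7 and 59.5 CPM at 0 µM and at 41.2, 47.9 and 37.3 CPM at 1000 µM. The 1000 µM libraries were below all 18 libraries at lower doses, the closest of which was 10 µM replicate 1 with 48.5 CPM. The difference from 0 µM was -0.68 ± 0.12 on the log2 scale (95% interval -0.92 to -0.43; adjusted p = 0.00022), that from 100 µM was -0.44 ± 0.12 (adjusted p = 0.0161), and that from the mean of 0.01 to 10 µM was -0.45 ± 0.095 (adjusted p = 0.00144), all by edgeR. An annotated RNA on the opposite strand, AL355075.3, overlaps 492 exonic bases of PNP and was not analysed here.

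From 0.01 to 100 µM the group means of PNP lay between those at 1000 and 0 µM. At 0.1 µM the mean was close to that of the controls (difference -0.029 on the log2 scale, adjusted p = 0.926, edgeR). It stood at 56.4, 57.7 and 53.5 CPM at 0.01 µM, at 67.9, 59.2 and 71.1 CPM at 0.1 µM, and at 64.6, 52.1 and 52.1 CPM at 1 µM. At 10 µM it was 48.5, 52.0 and 59.6 CPM (difference from 0 µM -0.34 ± 0.12, adjusted p = 0.0458), and at 100 µM 61.7, 56.9 and 53.3 CPM (-0.24 ± 0.12, adjusted p = 0.211). No treated library exceeded the highest control and 13 of 18 were below the lowest. The 10 µM call of PNP was lost under RLE scaling (adjusted p = 0.0522), without control replicate 1 (0.16) or 2 (0.147), and without 10 µM replicate 1 (0.190) or 2 (0.131).

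The equilibrative transporters carry adenosine across the plasma membrane in either direction. SLC29A1 (ENT1; chr6:44219505-44234151, plus strand) stood at 127.9, 143.9 and 137.3 CPM at 0 µM and at 124.2, 115.5 and 117.8 CPM at 1000 µM. The 1000 µM libraries were below every control, and at 10 and 100 µM, 4 of 6 libraries were above every control. Of all 18 treated libraries 7 were above every control and 5 below. Neither 10 nor 100 µM passed against 0 µM (differences 0.10 and 0.11 on the log2 scale, adjusted p = 0.508 and 0.534, edgeR). The difference at 1000 µM was -0.19 ± 0.10 on the log2 scale against 0 µM (adjusted p = 0.136), -0.30 ± 0.10 against 100 µM (adjusted p = 0.0533) and -0.24 ± 0.082 against the mean of 0.01 to 10 µM (adjusted p = 0.0302), by edgeR. With the mitochondrial share as a covariate the first passed (adjusted p = 0.0438). The last of these was lost without 0.01 µM replicate 3 (adjusted p = 0.0549) and without 1000 µM replicate 1 (0.0585), 2 (0.139) or 3 (0.121).

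SLC29A2 (ENT2; ENSG00000174669.12, chr11:66362521-66372214, minus strand) was measured with 29 to 51 counts per library. It had 35, 43 and 39 counts at 0 µM and 29, 30 and 29 at 1000 µM, or 1.17, 1.38 and 1.24 CPM against 0.850, 0.738 and 0.919 CPM. The groups did not overlap, although 0.01 µM replicate 3, with 0.875 CPM, lay within the range of the 1000 µM libraries. The difference was -0.60 ± 0.20 on the log2 scale (95% interval -1.01 to -0.19; adjusted p = 0.0205, edgeR); it was lost with DESeq2 (adjusted p = 0.0672), in a fit of only 0 and 1000 µM (0.063), without a filter on low counts (0.149), without control replicate 2 (0.0739) and without 1000 µM replicate 2 (0.0919). AP001107.9, an antisense gene that overlaps 279 exonic bases of SLC29A2 and had 111 to 385 counts, was also lower at 1000 µM (9.53 ± 0.499 against 4.65 ± 1.1 CPM, log2 difference -1.03 ± 0.21, adjusted p = 0.000763). Whether the authors' counting used strand is not given in the sources used here, so reads of the 2 genes cannot be told apart.

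**Figure D3:**
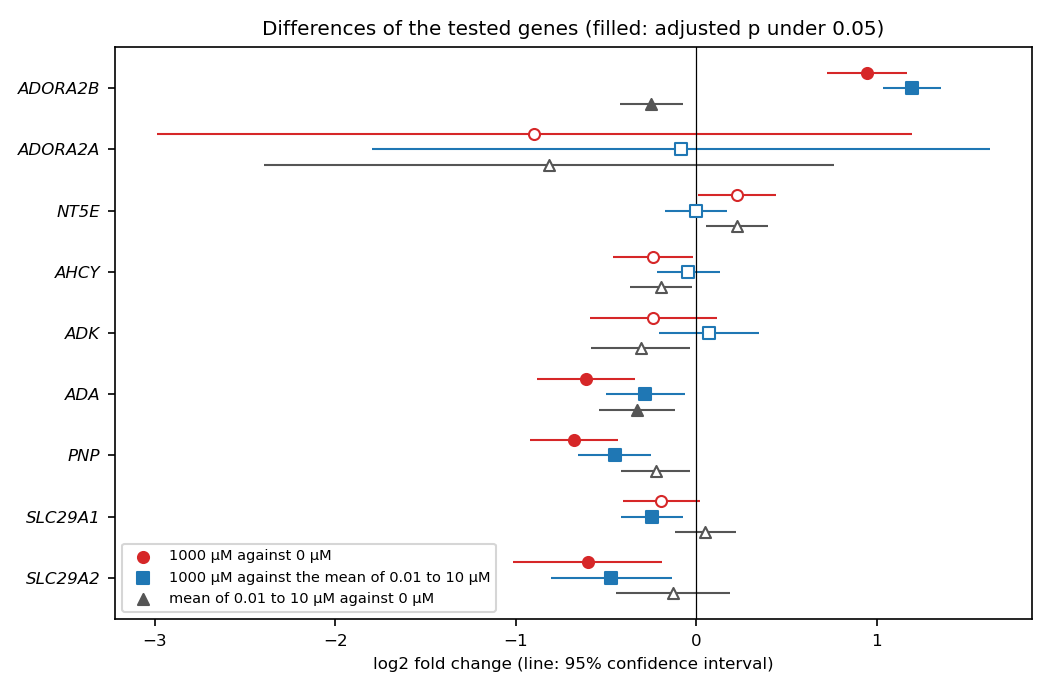
Log2 fold changes (horizontal axis, lines are 95% confidence intervals) of the 9 tested genes for 1000 µM against 0 µM (red circles), 1000 µM against the mean of 0.01 to 10 µM (blue squares) and the mean of 0.01 to 10 µM against 0 µM (grey triangles), filled where the adjusted p was under 0.05. ADORA2B is at 0.94 and 1.19 in the first and second of these and at -0.25 in the third; the red and grey sets share the control libraries.

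At 10 µM 4 genes were called, all lower (ADORA2B, ADK, ADA and PNP), where 22.0% of all genes tested passed and 10.7% passed as lower. With the mitochondrial share as a covariate ADA alone passed. Leaving out 1 library gave 1260 to 3707 of all genes at 10 µM, beside 3839 with all libraries. At 0.01, 0.1, 1 and 100 µM none of the 9 passed in edgeR's test, where 4.95%, 0%, 0% and 6.02% of all genes did. At an unadjusted p under 0.05 those doses had 5, 1, 3 and 1 of the 9 genes, beside 26.1%, 15.2%, 22.8% and 25.6% of all genes, and DESeq2 called 1 (NT5E), 0, 0 and 0. At 0.01 µM DESeq2 called 2191 of all genes, where edgeR called 864.

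The mean of 0.01 to 10 µM against 0 µM gave 2 calls, ADA and ADORA2B, both lower, where 18.2% of all genes passed and 8.93% passed as lower. That background rested on single controls. With all libraries 3186 genes passed, but without control replicate 1, 2 or 3 only 10, 557 or 2503 did. Between 100 µM and the mean of 0.01 to 10 µM none of the 9 genes passed in edgeR, none had an unadjusted p under 0.05 (9.38% of all genes) and DESeq2 called 0, where 0.447% of all genes passed. From 100 to 1000 µM 3 of the 9 passed, ADORA2B higher and PNP and SLC29A2 lower, where 14.7% of all genes did. Against the mean of 0.01 to 10 µM, 5 passed at 1000 µM, ADORA2B higher and PNP, SLC29A1, SLC29A2 and ADA lower, where 30.7% did. The ADA call in the last comparison (adjusted p = 0.0477) was lost on leaving out any of 12 single libraries (0.0522 to 0.352), and that of SLC29A2 (adjusted p = 0.0314) without 1000 µM replicate 1 (0.0796), 2 (0.173) or 3 (0.0593). All comparisons with 0 µM share the same 3 control libraries.

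The test of the 7 groups together called ADORA2B, PNP (adjusted p = 0.00491) and ADA (adjusted p = 0.0351, lost on leaving out any of 10 single libraries, with 0.0509 to 0.117), where 28.1% of all genes passed. A slope over the rank of the doses was 0.12 ± 0.036 on the log2 scale per step for ADORA2B (adjusted p = 0.0124), -0.08 ± 0.018 for ADA (adjusted p = 0.00424) and -0.08 ± 0.020 for PNP (adjusted p = 0.00497), by edgeR, where 29.1% of all genes passed. For ADORA2B the group means do not follow a line, since the means of the 5 doses from 0.01 to 100 µM were all under the control mean, and its slope did not pass without 1000 µM replicate 2 (adjusted p = 0.0511) or 3 (0.0520). In these bulk samples fewer cells expressing a gene and less of its RNA per cell cannot be told apart.

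Beside the 10 genes, 101 further genes of purine signalling and metabolism were listed, of which 96 were in the table and 71 were tested. At 1000 µM 40 of the 71 passed (56.3%, beside 41.2% of all genes tested), 19 higher and 21 lower, with a median log2 fold change of -0.011 (-0.030 over all genes tested). At 10 µM 15 passed (21.1%, beside 22.0%) and at 100 µM 4 (5.63%, beside 6.02%). Between 100 and 1000 µM, 17 of the 71 passed (23.9%, beside 14.7%). The lists were chosen with earlier results of these data known, so these shares are a description and not a test of the lists. Each list count below, for 1000 µM against 0 µM, stands beside the same 41.2% of all genes. The values below are differences at 1000 µM against 0 µM on the log2 scale with their SE and edgeR's Benjamini-Hochberg adjusted p, and up to 4 genes with the smallest p were named per list. Counts of a list include any of the 10 genes in it. Several genes named below share exonic bases with another annotated gene, and how such reads were assigned is not given in the sources used here. Among the genes named below, P2RX5, P2RY11, AMPD3, NT5C, NT5M, SLC28A1, APRT, DGUOK, GART, PFAS, MTR, MTRR, MAT1A, AK1, ADCY9 and GNAS did not pass between 100 and 1000 µM (adjusted p from 0.0616 for APRT to 0.954 for GNAS).

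**Figure D4:**
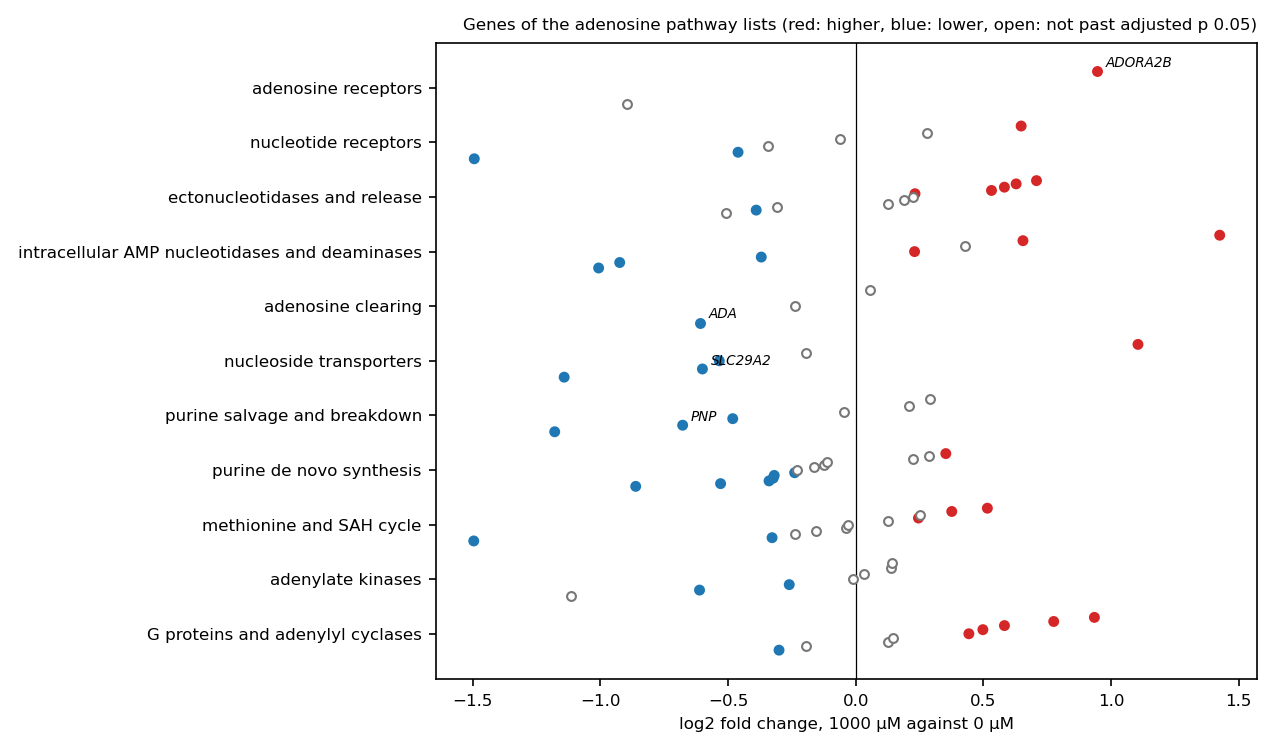
Log2 fold change at 1000 µM against 0 µM (horizontal axis) of each tested gene in the adenosine pathway lists (rows; vertical offsets within a row only separate the points), red for higher, blue for lower and open for an adjusted p that was not under 0.05. The transporter row reaches from -1.14 to 1.11 and the row of G proteins and adenylyl cyclases has 5 of its 9 points in red.

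Receptors for nucleotides, the precursors of extracellular adenosine, had 1 gene higher and 2 lower of 6 tested. P2RY6, a UDP receptor, was higher by 0.65 ± 0.15 (adjusted p = 0.00275), and P2RX5, an ATP-gated channel, was lower at -0.46 ± 0.15 (adjusted p = 0.0190), a call lost without control replicate 2 (0.0607) or 3 (0.0526) or 1000 µM replicate 3 (0.0865) and without a filter on low counts (0.0711). P2RX5 shares 1743 of its 4190 exonic bases with the readthrough gene P2RX5-TAX1BP3, whose part in its counts was not tested. P2RY11, an ATP receptor, was lower at -1.49 ± 0.56 (adjusted p = 0.0405), with 1000 µM libraries from 0.254 to 6.69 CPM. It shares 1148 exonic bases with the readthrough gene PPAN-P2RY11, which differed by 0.75 (adjusted p = 0.127), and the call of P2RY11 was lost on leaving out any single control (adjusted p of 0.0534 to 0.0941) or 1000 µM replicate 2 (0.106) or 3 (0.0763), with DESeq2 (0.0547), with the mitochondrial covariate (0.0516) and in a fit of only 0 and 1000 µM (0.103). Leaving out 1 library moved its value to between -2.48, without 1000 µM replicate 1, and -0.96, without replicate 3.

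Enzymes and channels that release or split nucleotides outside the cell had 5 genes higher and 1 lower of 11 tested. ABCC5, a cyclic nucleotide exporter, rose from 30.8 ± 2.43 to 50.3 ± 1.63 CPM (0.71 ± 0.092, adjusted p = 1.7e-05). ENTPD1 (CD39), which converts ATP and ADP to AMP, the substrate of CD73, rose from 34.2 ± 0.585 to 49.4 ± 1.42 CPM (0.53 ± 0.10, adjusted p = 0.00044). ALPL, an alkaline phosphatase that can also act on AMP, was higher by 0.63 ± 0.15 (adjusted p = 0.00349), and ABCC6, which mediates ATP release from hepatocytes, was lower at -0.39 ± 0.077 (adjusted p = 0.00066).

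Inside the cell, 3 nucleotidases or AMP deaminases were higher and 3 lower of 7 tested. AMPD3, an AMP deaminase, rose from 0.476 ± 0.0666 to 1.29 ± 0.0918 CPM (1.43 ± 0.28, adjusted p = 0.000625), and NT5C2, a purine nucleotidase of the cytosol, was higher by 0.65 ± 0.081 (adjusted p = 9.65e-06). NT5C, a deoxyribonucleotidase of the cytosol, fell from 47.8 ± 5.09 to 25.2 ± 5.28 CPM (-0.92 ± 0.18, adjusted p = 0.000645), and its mitochondrial counterpart NT5M was at -1.01 ± 0.23 (adjusted p = 0.00204). Genes on the opposite strand overlap 1892 of the 5156 exonic bases of NT5C2 (CNNM2) and 913 of the 1571 of NT5C (AC022211.4). Their part in these counts was not tested. The 3 tested genes of adenosine clearing had 1 call, that of ADA described above.

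Nucleoside transporters went both ways, with 1 higher and 3 lower of 5 tested. SLC29A3 (ENT3), the transporter of lysosomes and mitochondria, rose from 54.6 ± 2.46 to 117.5 ± 11.7 CPM (1.11 ± 0.13, adjusted p = 6.11e-06), in contrast to SLC29A2 and SLC29A4 of the same family. SLC29A4 (PMAT), a plasma membrane transporter of monoamines and adenosine, was lower at -0.53 ± 0.18 (adjusted p = 0.0217), a call lost without control replicate 2 (0.0715) or 3 (0.0548) and without 1000 µM replicate 2 (0.101) or 3 (0.0613). SLC28A1 (CNT1), a sodium-coupled pyrimidine nucleoside transporter, fell from 1.31 ± 0.234 to 0.593 ± 0.164 CPM (-1.14 ± 0.22, adjusted p = 0.000503), and its difference from 100 µM was -0.29 (adjusted p = 0.453).

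Purine salvage and breakdown had 3 lower and none higher of 6 tested: PNP, APRT and DGUOK. APRT, which salvages adenine to AMP, fell from 121.3 ± 16.4 to 53.6 ± 10.0 CPM (-1.18 ± 0.15, adjusted p = 1.73e-05), and DGUOK, the mitochondrial deoxyguanosine kinase, was at -0.48 ± 0.14 (adjusted p = 0.0111, and 0.0634 without 1000 µM replicate 3). Of the 13 tested genes of purine de novo synthesis, 6 were lower and 1 higher. ADSS1 and IMPDH1, on the AMP and GMP branches, were at -0.86 ± 0.096 (adjusted p = 3.34e-06) and -0.53 ± 0.10 (adjusted p = 0.000594), PFAS was at -0.32 ± 0.088 (adjusted p = 0.00689, 0.0528 without 1000 µM replicate 3 and 0.061 without a filter on low counts), and GART was higher by 0.35 ± 0.072 (adjusted p = 0.000832).

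The methionine and S-adenosylhomocysteine cycle, to which AHCY belongs, had 3 higher and 2 lower of 11 tested. GNMT, a glycine methyltransferase that makes S-adenosylhomocysteine, fell from 2.59 ± 0.305 to 0.917 ± 0.298 CPM (-1.50 ± 0.24, adjusted p = 0.000132), and MAT1A, the methionine adenosyltransferase of liver, was at -0.33 ± 0.074 (adjusted p = 0.00189, and 0.0516 without a filter on low counts). MTR, methionine synthase, and MTRR, its reductase, were higher by 0.38 ± 0.11 (adjusted p = 0.00936) and 0.52 ± 0.11 (adjusted p = 0.00136). Among the adenylate kinases, which interconvert AMP, ADP and ATP, AK1 was lower (-0.61 ± 0.17, adjusted p = 0.0077).

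G proteins and adenylyl cyclases, through which the receptors act, had 5 higher and 1 lower of 9 tested. The lower one was GNAS, the stimulatory alpha subunit, which fell from 1088 ± 56.2 to 883.7 ± 33.5 CPM (-0.30 ± 0.079, adjusted p = 0.0055); it is named here after its values were seen. The cyclases ADCY7, ADCY6 and ADCY9 were higher by 0.93 ± 0.15 (adjusted p = 0.000134), 0.58 ± 0.11 (adjusted p = 0.000346) and 0.50 ± 0.12 (adjusted p = 0.00341). ADCY7 rose from 8.49 ± 0.522 to 16.2 ± 0.651 CPM. It shares 3593 of its 8630 exonic bases with BRD7 on the opposite strand. Use of strand in the counting is not given, so reads in those bases cannot be told apart. GNAQ, the alpha subunit that the A2b receptor can also engage, rose from 44.9 ± 3.57 to 76.9 ± 12.8 CPM (0.78 ± 0.11, adjusted p = 5.57e-05).

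Across the 21 libraries, the genes whose log2 CPM was most like that of ADORA2B, among 12443 genes with a mean of at least 1 CPM, were SRXN1 (Pearson r 0.984), FST (0.978), IGFBP1 (0.972), CHMP4C (0.972) and PLIN2 (0.970). SRXN1 encodes sulfiredoxin, FST follistatin, IGFBP1 a secreted binding protein of insulin-like growth factors, CHMP4C an ESCRT-III subunit and PLIN2 a lipid droplet protein. The lowest coefficients were those of VSNL1 (-0.965), CABLES2 (-0.959) and TIMP3 (-0.953). All libraries of a dose share their treatment, and the 1000 µM group stands apart in ADORA2B. These coefficients therefore hold the pattern over doses together with differences between libraries of a dose. With dose means removed, ADORA2B had r -0.701 with the mitochondrial share of counts, and the part of that share in the likeness was not tested. Over the 18 libraries without 1000 µM, SRXN1 had r 0.864 with ADORA2B, FST 0.788, CHMP4C 0.772, IGFBP1 0.768 and PLIN2 0.687. These 18 libraries are among the 21 by which the genes were picked, so the values are a description and no separate check.

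**Figure D5:**
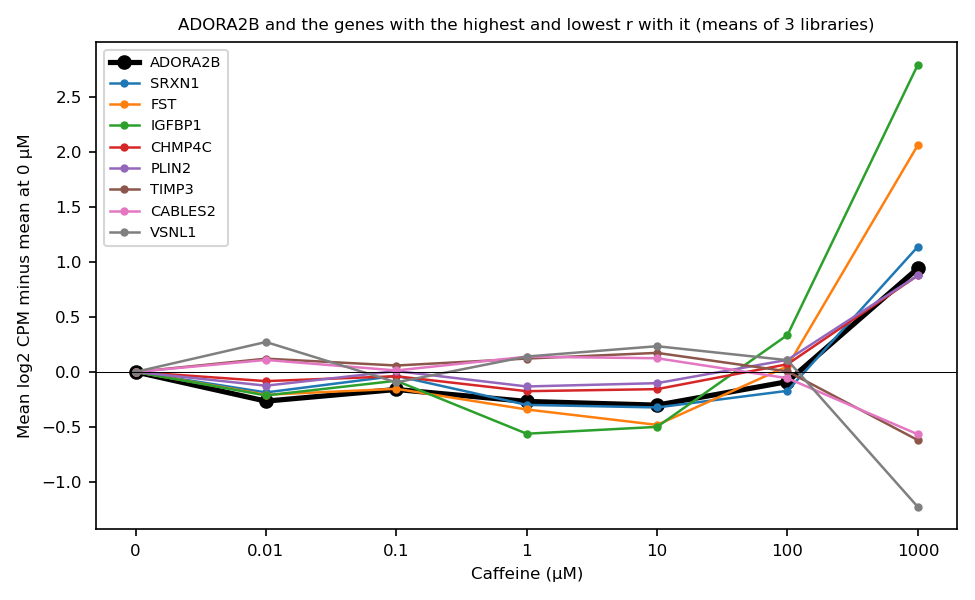
Mean log2 CPM of 3 libraries minus the mean at 0 µM (vertical axis) against caffeine in µM for ADORA2B (thick black line) and for the 5 genes with the highest and the 3 with the lowest Pearson r with it. ADORA2B and the 5 genes most like it are highest at 1000 µM, where FST and IGFBP1 rise further than ADORA2B, by 2.08 and 2.79 in edgeR's fit.

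Promoter sequence was examined in RefSeq windows of 300 bases (GRCh38.p14, 250 before to 50 after a start), of which 12 windows covered 8 of the 10 genes. ADORA2A and SLC29A2 had no window. The sequences printed below are those of ADORA2B, PNP and ADA, picked for their changes at 1000 µM. The motifs searched on both strands were GCGTG, the core of the response element of the aryl hydrocarbon receptor (AHR, a xenobiotic sensor), ACGTG, the core of the hypoxia response element, and TGACG, the core of the cyclic AMP response element. In ADORA2B, GCGTG begins at -229 and TGACG at -226 from the RefSeq start, and the motifs overlap in the letters TG. PNP has GCGTG at -70 and ADA has it at -21. In the windows below, 5′ to 3′ on the gene's strand, capitals mark the motif; they lie at chr17:15944889-15944917, chr17:15944892-15944920, chr14:20469324-20469352 and chr20:44651704-44651732, the last on the minus strand.
ADORA2B, AHR element core: ctccgagctcgaGCGTGacgggaagttgg
ADORA2B, cyclic AMP element core: cgagctcgagcgTGACGggaagttggggc
PNP, AHR element core: cagggccggcccGCGTGctcgcttgccat
ADA, AHR element core: ccgttaagaagaGCGTGgccggccgcggc

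Such short motifs are common: of 35116 RefSeq promoter windows of the same length, 36.5% held GCGTG, 21.4% ACGTG and 24.6% TGACG. A match is a description of the letters and not a site. Genes without a call at 1000 µM also had matches: NT5E held GCGTG and TGACG, AHCY held GCGTG in each of its 3 windows, ADK held GCGTG and TGACG in 1 of its windows, and SLC29A1 held ACGTG in 1.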

How the data were processed

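RNA-seq of HepG2 was read from the deposited table of read counts per gene, which per the submitters' processing notes involved HISAT2, GRCh38 and DESeq2; the counting program, annotation and use of strand are not given in the sources used here. Counts were used as deposited by the authors; 21 columns matched the samples and 21 others were not used. Symbols matched 24852 Ensembl IDs, and exon lengths came from GENCODE 29. The 10 genes and the pathway lists were chosen with earlier results of these data known. edgeR 4.0.16 (R 4.3.3; quasi-likelihood test, TMM, filterByExpr with a minimum count of 10) was fitted once over 21 libraries in 7 groups, with 14 residual degrees of freedom, 17468 genes and an adjusted p threshold of 0.05 (Benjamini-Hochberg). SE is the log2 fold change over the square root of F. Named were the 10 genes, up to 4 per list with the smallest p at 1000 µM, and the 5 highest and 3 lowest r with ADORA2B (log2 CPM, prior count 2). A gene picked by this rule is not reported here. Scripts were tested on simulated data. Replicate pairs within a dose differed by more than sampling noise (chi-square per gene 5.45 to 207). Alternatives were DESeq2 1.42.0, RLE scaling, other filters, a replicate block, a mitochondrial covariate, a threshold of 0.01, fits of only the groups compared, another dose scale and leaving out each library; 1000 against 100 µM, and all alternatives for genes other than the 10, were added after seeing the data.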

Additional observations from a re-analysis of the deposited data

How the results depend on the processing

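None of the 10 genes' called differences changed sign under any alternative. At 1000 against 0 µM, ADORA2B, PNP and ADA stayed past the threshold in each alternative listed for them at the outset, and leaving out 1 library gave 0.88 to 1.03, -0.76 to -0.60 and -0.69 to -0.49 on the log2 scale. Of 1905 values of single genes under the alternatives, 1779 stayed on the same side of the threshold, 114 lost it and 12 gained it. Of 614 values of the 41 other named genes, 571 stayed, 42 lost it and 1, P2RY11, changed sign (0.15 against 100 µM). Numbers of the 9 genes called at 0.01 µM were 1 with DESeq2 and 1 with at least 10 counts in every library. Over all genes these fits called 2191 and 1301, beside 864 in the main fit. Filters also change the number of genes tested. At 10 µM the 4 calls became 2 under RLE scaling, 1 without a filter, 1 with the mitochondrial covariate and 0 at the 0.01 threshold. There 3792, 3011, 3359 and 1255 of all genes passed, beside 3839 in the main fit. For the mean of 0.01 to 10 µM against 0 µM the 2 calls became 1 under RLE, 0 without a filter, 0 at the 0.01 threshold and 1 with only the groups compared. All genes called were then 3122, 2398, 819 and 2516, beside 3186. At 1000 µM against 0.01 to 10 µM the 5 became 2 in each of the fits without a filter, at the 0.01 threshold and with only the groups compared. Of all genes 4492, 3207 and 4372 passed in these fits, beside 5366. At 100 µM only the groups compared gave 1 (ADA), and without 1000 µM the joint test gave 0 in place of 3. Over all genes these were 4015 in place of 1051 and 159 in place of 4901. Leaving out 1 library gave 0 to 0 calls at 0.01, 0.1, 1 and 100 µM and for 100 µM against 0.01 to 10 µM, 0 to 4 in the 10 µM comparison, 3 to 5 in the 1000 µM comparison, 0 to 3 for 0.01 to 10 µM against 0 µM, 2 to 5 for 1000 µM against 0.01 to 10 µM, and 2 to 3 for the joint test and the slope. A replicate block left 2 calls at 10 µM (ADK and ADA) and 1 for 0.01 to 10 µM against 0 µM (ADA), where 3297 and 2549 of all genes passed. Equal numbers are not known to pair the samples, since deviations of the 63 same-numbered pairs had r from -0.437 to 0.249 and 5 of 21 libraries correlated best with their own number. Low counts limit ADORA1 (2 to 13 per library), ADORA2A (12 to 281) and SLC29A2 (29 to 51).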
